A study of Mus musculus with 6 samples.

Results

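Complement is a set of blood and tissue proteins that tag microbes and dying cells, and macrophages make a share of it locally. Described here are 9 complement genes in cultured mouse macrophages, chosen by name as classical and alternative pathway components and regulators that macrophages make: C1qa, C1qb, C1qc, C4b, C2, Cfb, C3, Cfp and Serping1. All 9 were found among the 25044 genes of the deposited table, each under 1 identifier. The cells were peritoneal macrophages of wild type C57BL/6 mice aged 8 weeks, washed out 3 days after thioglycollate, an irritant that recruits monocytes which become macrophages. Adherent cells were cultured for 24 h and given DMSO as vehicle or 100 nM trametinib, a drug that blocks the kinases MEK1 and MEK2 and so the activation of ERK. LPS, a bacterial product sensed by TLR4, was added after 2 h to both groups, at a dose of 100 ng/ml and for a further 12 h. Each group had 3 libraries of ribosomal-RNA-depleted RNA and no library came from cells without LPS, so the comparison is of trametinib with vehicle in LPS-treated cells.

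In the classical pathway, C1q binds antibody or surface patterns and starts the cleavage of C4 and C2, which together cut C3, the protein on which all routes meet. In the alternative pathway, factor B takes the place of C2 and properdin steadies the enzyme it forms with C3. C1 inhibitor holds the first proteases back. Liver cells supply most complement in blood, whereas C1q comes mainly from macrophages and related cells, and inflammatory signals are known to raise C3 and factor B outside the liver.

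The library totals ran from 17453778 to 19648467 counts. All 7 genes listed as MEK-ERK output fell with trametinib, among them Spred1 from 293 ± 93.9 to 46.4 ± 1.26 CPM (SD, n = 3 per group). CPM is the count scaled to a common library size with TMM factors. The calls of Dusp6 and Etv5 in that list were lost when single libraries were left out. Among the vehicle libraries, replicate 3 was set off by this list, with a summed level of 212 CPM against 449 and 454, and the trametinib libraries lay between 47.1 and 49.4 CPM. Markers of macrophages summed to 15100 to 16900 CPM in the vehicle libraries and 14000 to 15600 in the trametinib libraries, of which Lyz2 is the main part. Within that list of 7, Adgre1 (F4/80) fell, with 1477 to 1866 CPM for vehicle and 860 to 982 CPM for trametinib (edgeR adjusted p 0.000502), and Itgam fell (0.0437). Mertk rose, with 99.3 to 105.8 CPM for vehicle and 182.5 to 251.4 CPM for trametinib (0.000412). Those of B cells and of T and NK cells each stayed under 1 CPM in every library. The resident peritoneal macrophage factor Gata6 had 1 count in all libraries together.

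By edgeR's quasi-likelihood test with Benjamini-Hochberg adjustment over 11286 genes, C3, Cfb, C2 and Serping1 rose, no member fell, and C1qa, C1qb, C1qc, Cfp and C4b did not pass an adjusted p under 0.05. Of all genes tested, 34.3% passed in either direction, 15.8% passed as higher and 18.4% as lower. In the same 4 members all trametinib libraries lay above all vehicle libraries, as they did in 23.4% of all genes tested. The groups of C1qa, C1qb, C1qc, Cfp and C4b overlapped. Counting both directions, groups that did not overlap were found in 49.3% of all genes tested. The median log2 fold change over the 9 members was 0.14, beside −0.01 over all genes tested. That median is the value of C4b, which did not pass, and a shift of the members as a set was not tested.

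C3 was the most strongly expressed member with trametinib and the only riser with an entry in the promoter table. The sequences before the start sites of C3, C1qb, C1qc and Cfp follow, so that the riser C3 can be read beside 3 genes that did not pass. They come from RefSeq promoter windows on GRCm38.p6, which held 4 of the 9 members, and are printed 5′ to 3′ on the minus strand as far as no GENCODE exon begins. In capitals are matches on either strand to TTNNGCAA (C/EBP-type) or to GGG and CC set 5 bases apart (NF-kappaB-type).
C3, chr17:57228137-57228386: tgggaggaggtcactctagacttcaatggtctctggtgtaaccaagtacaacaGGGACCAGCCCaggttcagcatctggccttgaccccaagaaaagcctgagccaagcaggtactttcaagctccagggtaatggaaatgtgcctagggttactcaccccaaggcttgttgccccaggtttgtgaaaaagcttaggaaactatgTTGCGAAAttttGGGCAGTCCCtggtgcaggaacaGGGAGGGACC
C1qb, chr4:136886201-136886450: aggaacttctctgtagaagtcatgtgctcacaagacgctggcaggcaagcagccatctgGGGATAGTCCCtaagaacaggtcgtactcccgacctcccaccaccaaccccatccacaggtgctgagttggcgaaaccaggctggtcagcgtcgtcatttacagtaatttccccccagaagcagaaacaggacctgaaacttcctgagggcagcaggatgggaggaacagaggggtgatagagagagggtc
C1qc, chr4:136893066-136893164: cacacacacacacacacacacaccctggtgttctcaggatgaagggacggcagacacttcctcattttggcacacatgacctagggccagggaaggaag
Cfp, chrX:20931556-20931805: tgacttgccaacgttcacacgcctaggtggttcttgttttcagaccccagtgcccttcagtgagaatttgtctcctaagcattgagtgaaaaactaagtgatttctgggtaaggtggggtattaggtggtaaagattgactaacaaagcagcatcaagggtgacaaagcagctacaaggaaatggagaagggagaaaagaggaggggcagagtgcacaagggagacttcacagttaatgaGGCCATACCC
The C3 stretch held 1 match to TTNNGCAA, the sequence TTGCGAAA, and 5 matches to the NF-kappaB-type pattern, counting overlaps and both strands. TTNNGCAA occurred in 10.8% of the 32851 windows of 300 bases and in none of the windows of C1qb, C1qc and Cfp. The NF-kappaB-type pattern is common, in 50.8% of windows, and matched 2 times in the C1qb window, 3 times in that of C1qc (all outside the printed part) and 1 time in that of Cfp. TTCNNNGAA (STAT-type), GAAA repeated after 2 bases (IRF-type) and TGCTGAC (Maf-type) occurred in none of the 4 windows and in 8.3%, 3.4% and 4.7% of all windows. A match is a description of letters and shows no binding.

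All 9 genes lie on the minus strand in GENCODE M21 (mm10). C1qb (136880129 to 136886187), C1qc (136889804 to 136893065) and C1qa (136895917 to 136898803) are neighbours on chromosome 4. C4b (34728380 to 34743882), Cfb (34856374 to 34862518) and C2 (34862604 to 34898265) lie together on chromosome 17, and C3 lies farther along it (57203970 to 57228136). Serping1 is on chromosome 2 (84765387 to 84775444) and Cfp on chromosome X (20925454 to 20931555). Transcripts of C1qa, C1qb, C1qc, C3, Cfp and Serping1 shared no window of 50 bases with another gene. C4b shared 34.6% of its windows with its copy C4a, Cfb shared 73.0% with the annotated C2-Cfb read-through gene Gm20547, and C2 shared 38.7% with Gm20547 and 2.9% with Zbtb12 on the opposite strand. C4a and Zbtb12 have entries in the deposited table, and Gm20547 has none. How reads from shared sequence were assigned is not given in the sources used here. The values of C4b, Cfb and C2 are thus less certain than those of the other members.

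C3 encodes the central component, whose cleavage marks surfaces and releases the anaphylatoxin C3a. It had 1428, 1366 and 2270 CPM in vehicle replicates 1 to 3 and 3711, 3267 and 3809 CPM in the trametinib libraries. Every trametinib library lay above every vehicle library, and vehicle replicate 3 was the highest of its group. C3 rose 2.13-fold (log2 fold change 1.09, SE 0.20, 95% interval 0.61 to 1.57, edgeR adjusted p 0.00668). Its share of all counts went from a mean of 0.174% to 0.352%. Without vehicle replicate 3 the log2 fold change of C3 was 1.36.

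Cfb encodes factor B, the protease of the alternative pathway C3 convertase. Its level was 72.2, 66.8 and 89.3 CPM in the vehicle libraries and 118.7, 107.3 and 107.8 CPM in the trametinib libraries. The groups did not overlap, with vehicle replicate 3 again the highest vehicle library. Cfb rose 1.46-fold (log2 fold change 0.55, SE 0.11, 95% interval 0.31 to 0.79, edgeR adjusted p 0.00502). C2, which encodes the corresponding protease of the classical and lectin pathways, was far lower in level. It had 48, 39 and 61 counts in the vehicle libraries and 102, 93 and 79 in the trametinib libraries, or 2.69, 2.18 and 3.30 CPM against 6.03, 5.00 and 4.4 CPM. The C2 groups did not overlap either. C2 rose 1.88-fold (log2 fold change 0.91, SE 0.20, 95% interval 0.46 to 1.36, edgeR adjusted p 0.00802).

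Serping1 encodes C1 inhibitor, a serpin that inactivates the C1r and C1s proteases of the C1 complex. It had 3, 5 and 21 counts in the vehicle libraries and 57, 51 and 52 counts in the trametinib libraries, or 0.168, 0.279 and 1.13 CPM against 3.37, 2.74 and 2.90 CPM. Vehicle replicate 3 held most of the vehicle counts and still lay under every trametinib library. The rise was the largest of the 9 members at 5.57-fold (log2 fold change 2.48, SE 0.50, 95% interval 1.33 to 3.62, edgeR adjusted p 0.00698). Without vehicle replicate 3 the log2 fold change of Serping1 was 3.70. Of all genes tested, 2.94% were at least 2-fold higher and passed, a mark that C3 and Serping1 exceeded.

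Fibroblasts and mesothelium also make C3 and C1 inhibitor, and their 10 listed markers summed to 0.756 to 1.40 CPM in the vehicle libraries and 0.532 to 3.06 CPM in the trametinib libraries. These sums overlapped between the groups, and Msln, a mesothelial marker, had no count in any library. Col1a2 had 0, 0.0558 and 0.162 CPM with vehicle and 0, 0.914 and 1.06 CPM with trametinib, and Col1a1 had 0, 0 and 0.216 CPM with vehicle and 0, 0.645 and 0.947 CPM with trametinib. Both were higher in trametinib replicates 2 and 3 and without a count in trametinib replicate 1. Dcn and Upk3b went the other way, with 20 and 32 counts over the vehicle libraries and 15 and 15 over the trametinib libraries. The neutrophil markers summed to 4.49 to 7.35 CPM with vehicle and 4.29 to 10.5 CPM with trametinib. Those of dendritic cells summed to 1.85, 2.23 and 1.40 CPM with vehicle and 2.66, 3.98 and 2.34 CPM with trametinib, and those of mast cells to 0, 0 and 0.054 CPM against 0.296, 0.538 and 0.223 CPM, with Mcpt4 at 0 in all libraries. Both sums were higher in every trametinib library than in every vehicle library, as C3, Cfb, C2 and Serping1 were. The same held for 23.4% of all genes tested. Of 5 dendritic cell markers 1 was tested and did not pass, and no mast cell marker had enough counts to be tested. Eosinophil markers summed to 3.25, 2.34 and 0.702 CPM with vehicle and 0.828, 1.83 and 0.891 CPM with trametinib, and these sums overlapped. The part of such cells in the rises was not tested. Fewer cells of a type and less RNA per cell cannot be told apart in such bulk libraries.

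**Figure D1:**
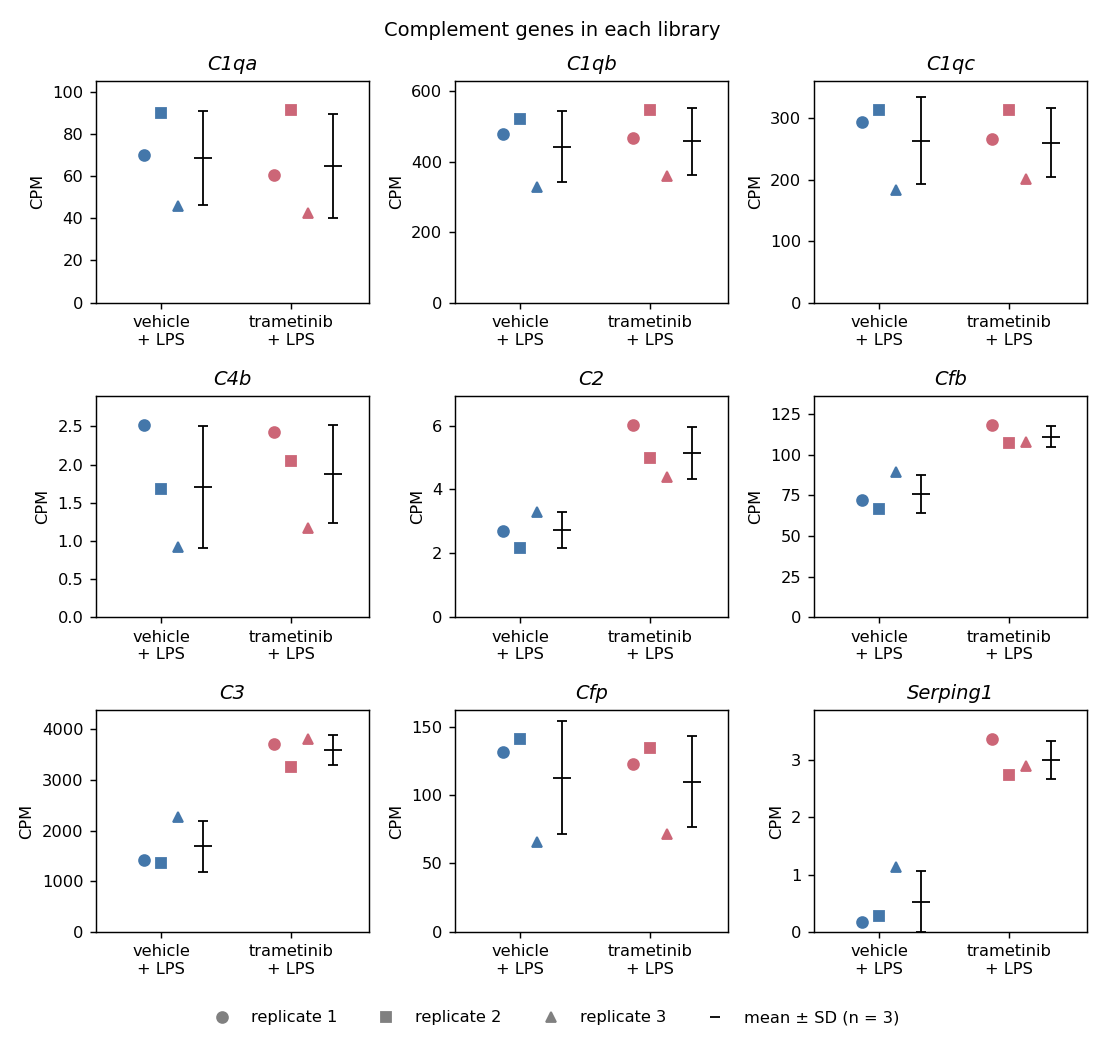
CPM of each of the 9 genes (vertical axes, linear from 0) in the 6 libraries, with vehicle in blue, trametinib in red, the symbol giving the replicate number and the black bar the mean ± SD of 3 libraries. In C2, Cfb, C3 and Serping1 all red points lie above all blue points, whereas in C1qa, C1qb, C1qc and Cfp the triangle of replicate 3 is the lowest in both groups.

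C1qa, C1qb and C1qc encode the 3 chains that assemble into C1q, and their mean levels hardly differed between the groups. C1qb, the highest of them, had 479, 520 and 328 CPM in vehicle replicates 1 to 3 and 467, 546 and 358 CPM in trametinib replicates 1 to 3. C1qc had 295, 314 and 183 CPM with vehicle and 267, 313 and 202 CPM with trametinib. C1qa had 70.0, 90.0 and 45.7 CPM with vehicle and 60.4, 91.4 and 42.3 CPM with trametinib. For each chain the groups overlapped, replicate 2 was the highest and replicate 3 the lowest of both groups. The log2 fold changes were −0.08 for C1qa (edgeR adjusted p 0.890), 0.05 for C1qb (adjusted p 0.886) and −0.02 for C1qc (adjusted p 0.966).

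Cfp encodes properdin, which stabilises the alternative pathway convertase and is made by myeloid cells. It followed the same order over the libraries, with 131.5, 140.8 and 65.3 CPM for vehicle and 122.4, 134.4 and 71.8 CPM for trametinib. The Cfp groups overlapped, and its log2 fold change was −0.04 (edgeR adjusted p 0.951). C4b encodes C4, the source of a subunit of the classical convertase, and was near the limit of what could be counted. Its libraries had 45, 30 and 17 counts with vehicle and 41, 38 and 21 with trametinib, or 2.52, 1.67 and 0.919 CPM against 2.42, 2.04 and 1.17 CPM. Replicate 3 was the lowest C4b library of both groups, which overlapped (log2 fold change 0.14, edgeR adjusted p 0.812).

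A p that misses the threshold does not show equal levels, and the intervals give what these libraries allow. Between groups alone the 95% interval of the log2 fold change ran from −1.04 to 0.88 for C1qa, from −0.46 to 0.55 for C1qb, from −0.60 to 0.56 for C1qc, from −1.02 to 0.94 for Cfp and from −0.76 to 1.04 for C4b. With the replicate number as a block the intervals were −0.25 to 0.05 for C1qa, −0.08 to 0.19 for C1qb, −0.16 to 0.16 for C1qc, −0.17 to 0.14 for Cfp and −0.34 to 0.66 for C4b. The block changed no call among the 9 members, while 42.9% of all genes passed in that fit. Within the blocked fit, changes of the C1q chains or Cfp as large as that of Cfb (0.56) lay outside these intervals. The block rests on a pairing that the labels do not state. Between groups alone the change of Cfb was 0.548, which lay inside the intervals of the C1q chains and Cfp.

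**Figure D2:**
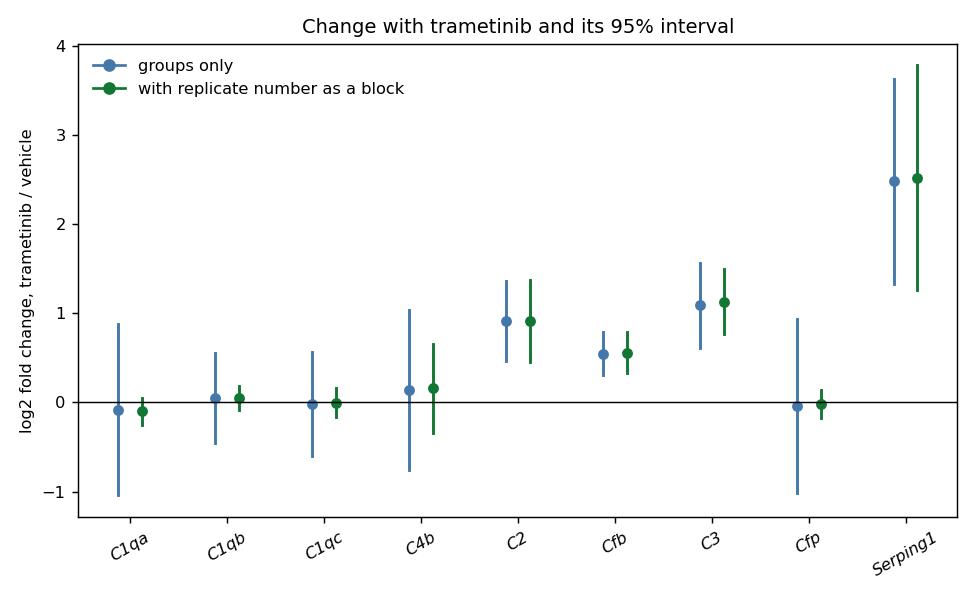
Log2 fold change of trametinib over vehicle (vertical axis) for the 9 genes, with points for the estimate and lines for the 95% interval, from the fit on groups only (blue) and with the replicate number as a block (green). The intervals of C2, Cfb, C3 and Serping1 lie above 0 in both fits, and those of C1qa, C1qb, C1qc and Cfp cross 0 and are narrower with the block.

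The spread of the C1q chains and Cfp over the replicate numbers was tested by the number term of the blocked edgeR fit, a test chosen after the values were seen. The term passed in C1qa (adjusted p 0.0125), C1qb (0.0359), C1qc (0.0417) and Cfp (0.0125), and in 0.399% of all genes (45 of 11286). It did not pass in C3 (adjusted p 0.392), C4b (0.156), Cfb (0.593), C2 (0.783) or Serping1 (0.819). The count of members was fragile: with limma-voom it was 2 (C1qa and Cfp), beside 0.222% of all genes. The count was 0 without vehicle replicate 1, vehicle replicate 2, trametinib replicate 1 or trametinib replicate 2. In those settings, in that order, 0.00%, 0.105%, 0.0262% and 0.0525% of all genes passed, so few genes of any kind did. The count of members was 5 without vehicle replicate 3 and 7 without trametinib replicate 3, settings in which 8.42% and 16.2% of all genes passed. DESeq2 gave 4 members beside 2.14% of genes. The labels do not say what a replicate number stands for.

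The summed markers of resident large peritoneal macrophages were lowest in replicate 3 of both groups, as the C1q chains were. The 6 listed markers summed to 4.09, 4.69 and 2.59 CPM in vehicle replicates 1 to 3 and 4.14, 4.35 and 3.17 CPM in trametinib replicates 1 to 3. Timd4, one of them, had 1.29, 1.12 and 0.270 CPM with vehicle and 0.946, 0.914 and 0.446 CPM with trametinib. Icam2 had 2.13, 2.79 and 1.94 CPM with vehicle and 2.31, 2.15 and 2.28 CPM with trametinib, where replicate 3 was not the lowest, and Prg4 was highest of the vehicle libraries in replicate 3 (0.270 CPM). The number term passed neither in Timd4 (adjusted p 0.216) nor in Icam2 (0.854), the 2 markers tested. Gata6 and Alox15 had at most 1 count in any library. The part of such cells in the C1q values was not tested.

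**Figure D3:**
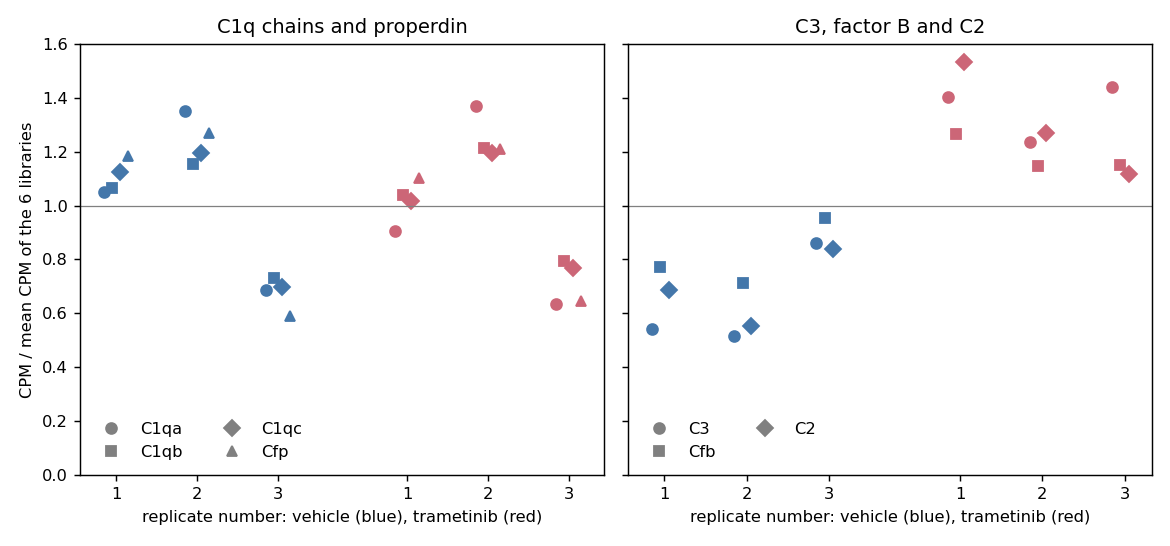
Level of each gene divided by its mean over the 6 libraries (vertical axis, no unit) by replicate number, with vehicle in blue and trametinib in red. On the left, C1qa, C1qb, C1qc and Cfp lie below 1 in replicate 3 of both groups, and on the right C3, Cfb and C2 lie below 1 in every vehicle library and above 1 in every trametinib library.

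Because same-numbered libraries deviated together, the ratio within each number describes the members further. For C3 the log2 ratio of trametinib to vehicle was 1.38, 1.26 and 0.75 in numbers 1 to 3, for Cfb it was 0.72, 0.68 and 0.27, for C2 1.16, 1.20 and 0.42, and for Serping1 4.32, 3.30 and 1.35. In all 4 risers the ratio was above 0 in 3 of 3 numbers and lowest in number 3, whose vehicle library is the one that stood apart. For C1qb the ratios were −0.04, 0.07 and 0.13, and for Cfp −0.10, −0.07 and 0.14.

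Levels of different genes were compared as CPM per kilobase of exon. In the vehicle libraries C1qb came first at 406 ± 92.9, followed by C3 at 328 ± 98.2, C1qc at 137 ± 36.5, C1qa at 65.9 ± 21.4, Cfp at 64.8 ± 23.7, Cfb at 26.9 ± 4.15, C2 at 0.703 ± 0.145, C4b at 0.299 ± 0.141 and Serping1 at 0.227 ± 0.228 (SD, n = 3). The libraries of C1qb and C3, of C1qa and Cfp, and of C4b and Serping1 overlapped in this measure. With trametinib C3 came first at 699 ± 56.2, above C1qb at 420 ± 87.0 with no overlap between their libraries. Serping1 reached 1.29 ± 0.141 per kilobase with trametinib, overlapping C2 at 1.33 ± 0.213 and above all C4b libraries at 0.330 ± 0.113. The step from Cfb down to C2 was the widest, with a ratio of Cfb to C2 per kilobase of 36.8 to 42.1 in the vehicle libraries and 27.0 to 33.6 in the trametinib libraries.

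The proportions of the C1q chains varied little for C1qb and C1qc and more for C1qb and C1qa. C1qb exceeded C1qc per kilobase by a factor of 2.89 to 3.17 over the 6 libraries, and C1qa by 5.52 to 8.08. The ratio of C3 to C1qb moved far more, from 0.631, 0.556 and 1.47 in vehicle replicates 1 to 3 to 1.68, 1.26 and 2.25 in trametinib replicates 1 to 3. Vehicle replicate 3 lay within the trametinib range of this ratio. With the longest transcript in place of all exons, 7 of 9 genes kept their rank, C1qa and Cfp changed places, and C1qc stood at 219 in the vehicle libraries.

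**Figure D4:**
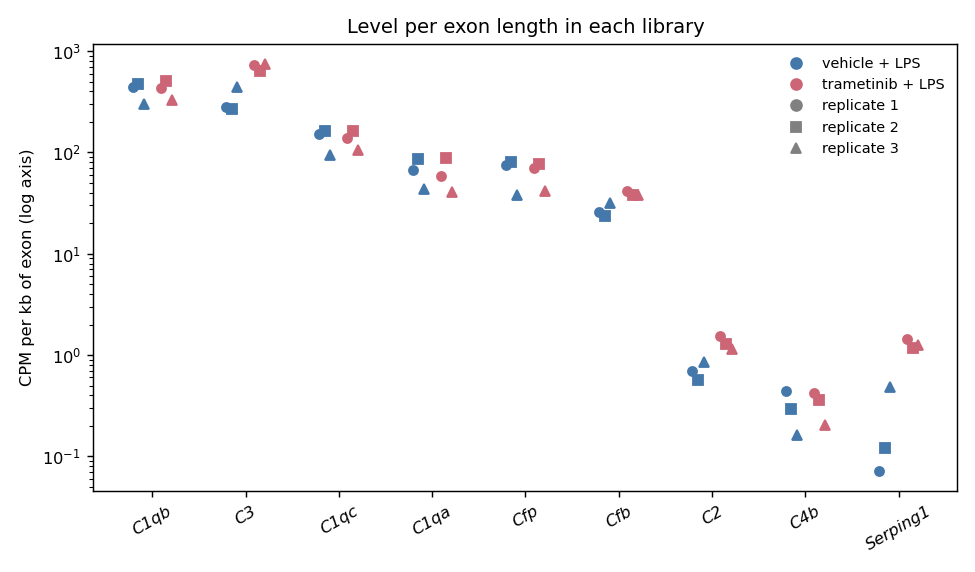
CPM per kilobase of exon (log axis) of the 9 genes in each library, ordered by the vehicle mean, with vehicle in blue, trametinib in red and the symbol giving the replicate number. C3 with trametinib lies at 635 to 741, above all points of C1qb, and C2, C4b and Serping1 lie below 2 in every library.

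Of 49 other complement genes, 22 were expressed enough to be tested, 3 rose, 6 fell and 13 did not pass, with a median log2 fold change of 0.14. These counts set 3 of 22 beside 15.8% of all genes higher and 6 of 22 beside 18.4% lower. With the replicate block 7 were higher, with Fcna, Colec12, Cd46 and Vsig4 added, where 20.5% of all genes were higher. Of the 27 not tested, 12 had no count in any library, among them Cfd (factor D, which cuts factor B) and the mannose-binding lectin genes Mbl1 and Mbl2.

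Among genes of classical initiation, C1s1, which encodes the protease C1s that cuts C4 and C2, rose. It had 0.336, 0.502 and 0.486 CPM with vehicle and 2.306, 2.096 and 2.283 CPM with trametinib, with no overlap (log2 fold change 2.31, SE 0.26, edgeR adjusted p 0.000494). The call of C1s1 held in all 13 alternatives. C1ra, for the partner protease C1r, had 16.8 to 22.0 CPM with vehicle and 20.1 to 24.1 with trametinib and did not pass, with an adjusted p of 0.224 at a log2 fold change of 0.20. Of 9 genes of lectin initiation, 7 had too few counts to be tested, and the 2 tested did not pass. Fcna, for ficolin A, had an adjusted p of 0.133 (0.0101 with the block) at a log2 difference of 0.57. Colec12, for a scavenger receptor collectin, had a log2 difference of 0.38 (adjusted p 0.169, and 0.0474 with the block).

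Terminal components, which form the membrane attack complex, were hardly expressed. C8g alone of 7 was tested, at 0.949 to 1.51 CPM with vehicle and 1.07 to 2.62 CPM with trametinib (log2 fold change 0.58, adjusted p 0.229). Hc, the gene of C5, had 1 count over all vehicle libraries and 13 over all trametinib libraries. Their ratio was 13.2, with a counting interval of 1.98 to 561.

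Among soluble and membrane regulators 1 gene rose and 1 fell. Clu, for clusterin, rose from 0.449, 0.725 and 0.594 CPM to 1.538, 1.236 and 1.002 CPM (log2 fold change 1.08, edgeR adjusted p 0.0269). The Clu call was lost with DESeq2 (0.087) and without vehicle replicate 1 (0.0987), trametinib replicate 1 (0.108) or trametinib replicate 2 (0.0701), and its adjusted p ran from 0.0255 to 0.108 across alternatives. Cr1l, which encodes Crry, the main C3 convertase inhibitor on mouse cells, had 90.3 to 94.0 CPM with vehicle and 88.0 to 113.9 CPM with trametinib (log2 fold change 0.13, adjusted p 0.315). Cd59a, which blocks the membrane attack complex, did not pass either, with an adjusted p of 0.974 at a log2 fold change of −0.01. Cd46 had an adjusted p of 0.0651 (0.0470 with the block) at a log2 difference of 0.93. C1qbp, a mostly mitochondrial protein that can bind C1q, fell by 0.62 in log2 units (adjusted p 0.00181).

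Receptor genes held 5 of the 6 falls. C5ar1, the receptor of C5a, fell by 4.16 on the log2 scale (edgeR adjusted p 0.00120), while C3ar1, the receptor of C3a, had 687 to 1148 CPM with vehicle and 755 to 882 CPM with trametinib and did not pass, with an adjusted p of 0.357 at a log2 fold change of −0.24. Without vehicle replicate 3 C3ar1 passed (log2 fold change −0.44, adjusted p 0.00193). Itgam and Itgb2, the chains of complement receptor CR3, fell by 1.17 and 0.28 in log2 units (0.0437 and 0.0381 after adjustment), and Itgax, which pairs with Itgb2 in CR4, had −0.07 (adjusted p 0.726). C5ar2, the second C5a receptor, fell by 1.42 (adjusted p 0.0216) and Cd93 by 0.46 (adjusted p 0.00642). The calls of C5ar2, Itgam and Itgb2 were each lost in 5 of the 6 settings that leave out 1 library, with adjusted p values of 0.0561 to 0.0808, 0.0856 to 0.134 and 0.0646 to 0.151 respectively, and that of Itgam also with no filter on low counts (0.124). Only without vehicle replicate 3 did they hold among those settings. Lrp1, a large endocytic receptor that can bind C1q, had 795 to 1005 CPM with vehicle and 716 to 855 CPM with trametinib and did not pass (adjusted p 0.180, log2 fold change −0.20), though it did without vehicle replicate 3 (0.0342). Calr, for the C1q-binding chaperone calreticulin, rose (log2 fold change 0.35, adjusted p 0.00809), and Vsig4, a macrophage receptor for C3 fragments, had 0.670 to 0.865 CPM with vehicle and 0.806 to 2.00 CPM with trametinib (log2 fold change 0.97, adjusted p 0.0715, and 0.0354 with the block).

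**Figure D5:**
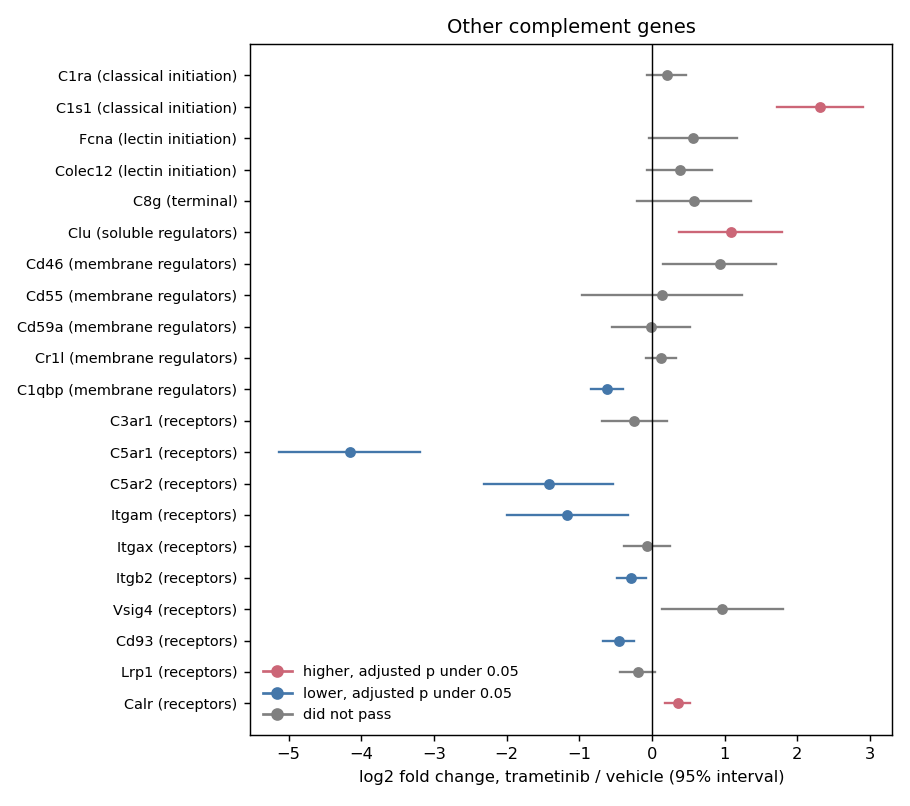
Log2 fold change of trametinib over vehicle (horizontal axis) with its 95% interval for other complement genes tested, by role, red where higher, blue where lower and grey where the test did not pass. C1s1, Clu and Calr are red, and C5ar1 lies farthest to the left at −4.16.

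Of 14 transcription factors known to act on complement genes, 5 rose, 4 fell and 5 did not pass, beside 15.8% of all genes higher and 18.4% lower. The call of Relb was lost in 7 of 13 alternatives. The smallest p values belonged to Cebpd, Irf8, Stat3, Irf1, Maf and Nr1h3. Cebpd, for C/EBP delta, fell by 2.85 on the log2 scale (edgeR adjusted p 0.000412), and Cebpb, its relative, had −0.08 (adjusted p 0.708). Irf8 and Irf1, for interferon regulatory factors, rose by 0.58 and 0.51 on the log2 scale (0.000755 and 0.00427 after adjustment), and Stat3 with 0.58 (adjusted p 0.00166). Maf fell by 1.56 (adjusted p 0.00694) and Nr1h3, for the oxysterol receptor LXR alpha, by 0.94 (adjusted p 0.00714).

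Over the 6 libraries, the genes whose log2 CPM was most like the mean of the C1q chains were Cd180, Tmsb10, Lgals1, Sptlc1 and Bcar3, with Pearson correlations of 0.993, 0.990, 0.990, 0.989 and 0.989. Those most like C3 were Acox3, Hectd4, N4bp2, Fcho2 and Ctdsp2, at 0.999, 0.999, 0.999, 0.998 and 0.998. These are the highest of many genes over 6 points that share libraries and scaling, and are given as a description. Cd180, for a relative of TLR4, had 582, 593 and 471 CPM with vehicle and 553, 610 and 479 CPM with trametinib, so it too was lowest in replicate 3 of both groups.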

How the data were processed

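RNA of 6 macrophage cultures, 3 with vehicle and LPS and 3 with trametinib and LPS, was sequenced after ribosomal RNA removal. The authors deposited 1 table of raw counts of reads per gene. The submitters' processing notes name mm10 with featureCounts 1.6.4, HISAT2 2.1.0, R 3.6.0 and DESeq2 1.24.0. Not given in the sources used here are the annotation, the strand setting and how multimapping reads were counted. Of 25354 entries 310 repeats were dropped, and 25033 of the 25044 identifiers matched GENCODE M21, which gave symbols, positions and exon lengths.

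Groups came from the labels. The main test was the quasi-likelihood test of edgeR 4.0.16 in R 4.3.3 (filterByExpr, TMM factors, robust fit, group only) with Benjamini-Hochberg adjustment over all 11286 genes tested and a threshold of 0.05. The SE is the log2 fold change over the square root of F, and 95% intervals use its degrees of freedom. The procedure was tested on simulated data. It recovered 23 of 47 genes set to change 1.5-fold, 40 of 50 at 2-fold, 48 of 50 at 4-fold and 47 of 48 at 8-fold. Of 10985 genes set not to change, 17 were called. Changes near 1.5-fold were thus often missed there. The labels name 3 mice and do not say which library came from which, so p values measure the spread between these libraries. The ratio of Hc carries an exact 95% interval for counting error only.

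Deviations from group means of same-numbered libraries correlated across genes at 0.355, 0.435 and 0.319. The labels state no pairing. By this hint from the data, the numbers paired libraries only in the replicate block, its number term and the ratios within numbers. Deviations of differently numbered libraries correlated at −0.284 to −0.0777. Deviations within a group cancel out, so these negative values follow on average from the positive ones and are no separate hint. The main test is unpaired, and calls rest on it unless the block or another alternative is named. Chi-square values per gene between replicates were 5.98 to 28.1, so none was a copy. Alternatives were the size factors of DESeq2, TMM computed after removing mitochondrial and the 10 most abundant genes, no low-count filter, a filter of 1 CPM in 3 libraries, limma-voom (limma 3.58.1), DESeq2 1.42.0, the replicate block and fits lacking 1 library each. The members, gene lists, motifs and rules were chosen with earlier results of these data known. Named are all members, every other complement gene that passed or had a mean of at least 1 CPM and the 6 transcription factors with the smallest p, with the 5 genes most correlated with the C1q chains and with C3. Some genes under this rule are not reported here. Hc, Cebpb, Cd46 and Vsig4 were also named after their values were seen.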

Additional observations from a re-analysis of the deposited data

How the results depend on the processing

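The rises of C3, Cfb, C2 and Serping1 kept their direction and an adjusted p under 0.05 in 13 of 13 alternatives, with log2 fold changes of 0.96 to 1.36, 0.46 to 0.68, 0.78 to 1.07 and 2.06 to 3.70 and highest adjusted p of 0.0312, 0.0288, 0.0418 and 0.0344. C1qa, C1qb, C1qc, Cfp and C4b passed in none of the 13, and their log2 fold changes turned sign only when single libraries were left out. C1qa had 0.16 and 0.15 without vehicle replicate 2 and trametinib replicate 3, within −0.41 to 0.16 over single libraries left out. C1qb had −0.13 and −0.10 without vehicle replicate 3 and trametinib replicate 2, within −0.13 to 0.20. C1qc had 0.07, 0.12 and 0.14 without vehicle replicates 1 and 2 and trametinib replicate 3, within −0.22 to 0.14. Cfp had 0.09, 0.15 and 0.19 without the same libraries, within −0.31 to 0.19. C4b had −0.16 and −0.08 without vehicle replicate 3 and trametinib replicate 1, within −0.16 to 0.54. Other complement genes higher numbered 7 with the replicate block and 5 with no filter on low counts, against 3, and those lower ran from 3 to 8 with single libraries left out, against 6. Over all genes the count of 3869 ran with single libraries left out from 2428 without trametinib replicate 1 to 4663 without vehicle replicate 3, was 2538 without vehicle replicate 1, and was 4837 with the replicate block. The block added Fcna, Colec12, Cd46 and Vsig4 and changed no other call among the complement genes. Members with a difference between replicate numbers, a test and alternatives chosen after seeing the data, were 4 in the main test, 2 with limma-voom and 0 to 7 with single libraries left out. Of all genes, 0.399%, 0.222% and 0.00% to 16.2% passed in these settings. The causes were not tested. Serping1 with 3 to 57 counts and C4b with 17 to 45 counts per library are the members that depth limits most.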

Other observations

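The number term passed in 45 genes, C1qa, C1qb, C1qc and Cfp included, at an adjusted p under 0.05 in the blocked edgeR fit. Cd5l, an apoptosis inhibitor secreted by macrophages, had 250, 384 and 129 CPM in vehicle replicates 1 to 3 and 371, 561 and 198 CPM in trametinib replicates 1 to 3 (adjusted p of the number term 0.00215). Apoe, the gene of apolipoprotein E, had 8162, 8837 and 6469 CPM with vehicle and 9829, 10630 and 7611 CPM with trametinib (0.0359). Mrc1, the mannose receptor, had 68.4, 76.1 and 50.3 CPM with vehicle and 71.2, 85.2 and 52.3 CPM with trametinib (0.0346). In Cd5l, Apoe and Mrc1, as in the C1q chains, replicate 3 was the lowest and replicate 2 the highest of both groups. Il6 and Ccl22 were instead highest in replicate 3 of both groups. Il6 had 16.0, 13.2 and 34.8 CPM with vehicle and 11.9, 10.1 and 27.1 CPM with trametinib (0.00630). Ccl22, a chemokine gene, had 9.65, 10.3 and 33.2 against 16.6, 21.2 and 45.3 CPM (0.0189). These genes were named after their values were seen, and the count of 45 became 0 without vehicle replicate 1 and 1851 without trametinib replicate 3.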
